A study of Mus musculus with 12 samples.

Results

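The 47 genes described here are interferon-induced effectors of the OAS, IFIT, GBP, MX, ISG and IFI families together with the IRF and STAT transcription factors. They were chosen by a rule on names, with earlier results of these data known. It took gene probes whose array name begins with Oas, Oasl, Ifit, Ifi, Irf, Gbp, Mx, Stat or Isg followed by a digit. The brightest probe was kept for each gene. The rule found 70 probes for 47 genes, of 41174 probes for 29742 genes on the array. All 47 passed the filter on dim spots, so the counts below cover every member, and 29 of them rest on a single probe. Irf8, Irf9 and Isg15 carry older names in the files (Icsbp1, Isgf3g and G1p2), and fall outside the rule. Gbp1, Gbp4, Ifi1 and Ifi16 keep their names from the files, and their accessions now belong to Gbp2b, Gbp3, Irgm1 and Ifi204.

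The tissue was mammary tumour of female mice that had borne tumours for 6 weeks. The 6 strains were YB, YC, YD, YE and NYPD, and the parental NDL25, written NDL2-5 in the protocol. Every strain carried an activated neu (ErbB2) transgene driven by the MMTV promoter, which is active in mammary epithelium, so no comparison holds tumours without it. As background to these strains, phosphotyrosine docking sites in the tail of ErbB2 were removed in NYPD, and a single such site was put back in YB, YC, YD and YE. The comparisons set the altered receptors against the parental receptor, and the single-site receptors against NYPD. The age of the mice was not given in the sources used here. Each of the 12 pools joined equal RNA from 5 tumours, with 2 pools for each strain, so the spread between pools is not the spread between mice. A pool was hybridised on 2 arrays with the dyes swapped, against Universal Mouse Reference RNA, a commercial mixture. All values are log2 tumour over reference, the mean of both arrays of a pool: 0 is a level equal to the reference, and 1 is a 2-fold level.

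Median tumour intensity over the 24 arrays was 364.8 to 763.5 over a local background of 39 to 64, and 97.28% to 98.86% of gene spots were well above background. The number of pools limits the precision. The labels do not say which dye held the tumour, so it was read from 9 probes of milk protein genes, which shared a side on 23 arrays and in 7 of 9 probes on a YE array. Erbb2 lay on that same side on all 24 arrays. Erbb2 stood at 1.85 and 4.19 in the YB pools, 3.72 and 3.91 in the YC pools, 3.55 and 3.97 in the YD pools, 3.42 and 3.92 in the YE pools, 3.95 and 4.05 in the NYPD pools and 1.64 and 3.92 in the NDL25 pools, and the pools numbered 1 of YB and NDL25 lay far below the other 10. Per the file headers, the scans of NYPD were all read out on a day that held no other strain. Strain and readout day therefore cannot be told apart in any comparison with NYPD. All YD and YE scans were read on another day than all NDL25 scans, and only YC pool 2, with 1 array on each of those days, links them. The epithelial label was borne out by Cdh1, the E-cadherin gene, at 4.72 to 5.24, while Krt19 (Krt1-19 in the files) ran over -3.09 to 1.48. Whole tumours were pooled, so fewer cells of a type and less RNA per cell cannot be told apart.

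Interferons signal through receptors whose JAK kinases phosphorylate STAT proteins. STATs join IRF9 in ISGF3, which binds interferon-stimulated response elements, whereas the STAT complexes formed after interferon gamma bind GAS elements. The genes induced include sensors and nucleases of viral RNA (OAS, ISG20), blockers of viral translation (IFIT), large GTPases (GBP, MX) and the p200 proteins, which bind DNA. In tumours the same programme is known from malignant cells and from infiltrating immune cells alike.

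The promoters printed are those of the OAS genes that passed a test and of 4 members with wide ranges and a response-element match. They show where a match lies and, in Oas1f, a window where it was not found. RefSeq promoter windows (GRCm38.p6, 250 bases before to 50 after the start site) were found for 38 of the 47 members. The response-element core was searched as TTTC, any 2 bases, TTTC, and as its reverse complement GAAA, any 2 bases, GAAA, on both strands, and the GAS core as TTCNNNGAA, which is its own reverse complement. The response-element core lay in 16 of the 38 members (42.1%), against 3.99% of the 27025 genes of the table. The GAS core lay in 9 of 38 (23.7%), against 9.55%. By family, the response-element core was found in 5 of 6 GTPases, 2 of 3 IFIT genes, 4 of 8 OAS genes, 2 of 3 p200 genes, 2 of 6 STATs, 1 of 6 IRFs, 0 of 2 IRF2 cofactors and 0 of the 4 other genes. Of the 4 members that passed a test between strains, Oas1a alone held it. The 250 bases before the start are shown 5′ to 3′ on the strand of the gene, with that core in capitals. Overlapping matches merge into a longer run. Oas1a (chr5:120907526-120907775, minus strand) and Oas1f (chr5:120847117-120847366, plus strand) are the OAS genes that passed a test. Ifit1 (chr19:34640639-34640888, plus), Ifit3 (chr19:34583279-34583528, plus), Gbp4 (chr3:142559794-142560043, plus) and Ifi1 (chr11:48871421-48871670, minus) are among the members that ranged most widely over the pools.
Oas1a: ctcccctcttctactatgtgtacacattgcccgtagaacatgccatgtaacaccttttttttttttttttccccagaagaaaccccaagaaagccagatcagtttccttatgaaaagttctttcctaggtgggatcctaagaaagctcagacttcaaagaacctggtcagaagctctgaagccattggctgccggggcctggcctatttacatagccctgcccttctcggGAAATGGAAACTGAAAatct
Oas1f: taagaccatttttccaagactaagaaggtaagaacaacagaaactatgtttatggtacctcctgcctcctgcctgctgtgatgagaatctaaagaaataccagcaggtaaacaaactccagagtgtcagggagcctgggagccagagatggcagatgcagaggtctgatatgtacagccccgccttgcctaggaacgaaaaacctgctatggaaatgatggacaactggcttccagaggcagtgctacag
Ifit1: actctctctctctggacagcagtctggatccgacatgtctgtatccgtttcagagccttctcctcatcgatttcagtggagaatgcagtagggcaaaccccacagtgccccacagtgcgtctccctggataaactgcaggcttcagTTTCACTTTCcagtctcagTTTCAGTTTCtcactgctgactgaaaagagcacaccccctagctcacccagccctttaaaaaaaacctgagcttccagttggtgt
Ifit3: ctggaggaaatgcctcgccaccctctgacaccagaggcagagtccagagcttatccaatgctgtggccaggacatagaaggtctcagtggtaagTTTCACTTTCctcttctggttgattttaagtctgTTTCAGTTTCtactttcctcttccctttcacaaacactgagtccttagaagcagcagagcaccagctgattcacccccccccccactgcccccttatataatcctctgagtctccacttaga
Gbp4: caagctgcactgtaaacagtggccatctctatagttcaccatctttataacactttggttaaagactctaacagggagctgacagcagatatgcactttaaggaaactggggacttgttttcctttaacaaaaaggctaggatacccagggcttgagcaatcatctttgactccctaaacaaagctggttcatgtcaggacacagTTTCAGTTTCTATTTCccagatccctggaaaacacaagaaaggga
Ifi1: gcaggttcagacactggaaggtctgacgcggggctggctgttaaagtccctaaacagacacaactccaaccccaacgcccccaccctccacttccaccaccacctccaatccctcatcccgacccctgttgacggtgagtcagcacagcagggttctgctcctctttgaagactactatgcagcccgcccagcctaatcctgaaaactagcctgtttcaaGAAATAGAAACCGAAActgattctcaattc
Oas1a, Gbp4 and Ifi1 each hold 2 overlapping matches, which begin 20 and 14, 45 and 39, and 30 and 24 bases before the start. Ifit1 and Ifit3 each hold 2 separate matches. Oas1f holds no match in its window, and Gbp4 has a further RefSeq window without one. Irf7, Oasl2, Ifi44, Stat3 and Ifi47, also among the 10 members with the widest range, hold no match, and Oas2 has no window. A wide range therefore did not mark the members with a match. A match is a run of letters and not a measured binding site.

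Against the reference, 21 of the 47 members (44.7%) were above 0 in all 12 pools, where 23.4% of all 29498 genes tested were. Below 0 in all 12 pools were 8 members (17%), against 19.4% of all genes. The members that were high throughout were 6 of 8 GTPases, 6 of 12 OAS genes, 2 of 3 IFIT genes, 3 of 7 IRFs, 2 of 7 STATs, and Ifi30 and Ifi35. All 4 p200 genes were among those low throughout on their brightest probes, with Irf4, Oas3, Oasl1 and Isg20, although other probes of Ifi205 and Oas3 were above the reference in every pool. No test applies to these levels, since the reference is a mixture of RNAs and no sample of a group.

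**Figure D1:**
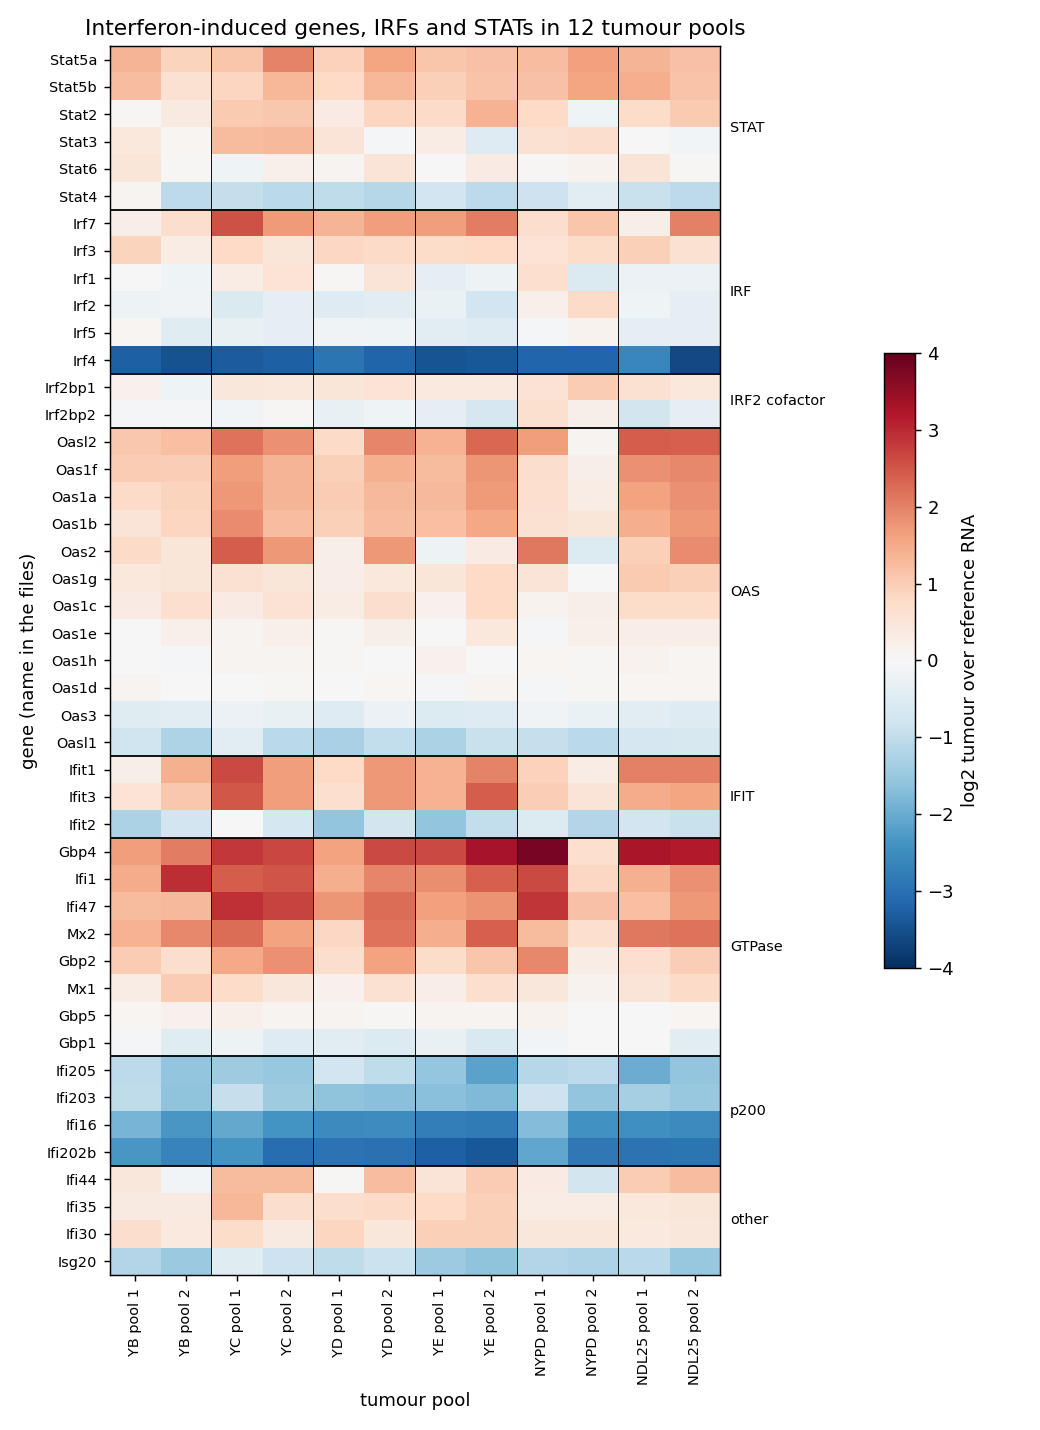
Log2 tumour over reference for the members named in the text (rows, by family, highest mean first within a family) in the 12 tumour pools (columns, 2 for each strain). Red is above the reference and blue below it, on a scale from -4 to 4. Gbp4 is the reddest row on average, Irf4 and Ifi202b the bluest, and the pale second NYPD pool is visible across the OAS, IFIT and GTPase blocks.

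Among the signal transducers, Stat2, a subunit of ISGF3, stood at 0.05 and 0.37 in the YB pools, 1.05 and 1.08 in the YC pools, 0.32 and 0.87 in the YD pools, 0.76 and 1.4 in the YE pools, 0.80 and -0.18 in the NYPD pools and 0.74 and 1.05 in the NDL25 pools. Its lowest pool was NYPD pool 2, the only one below the reference, and its highest YE pool 2. Irf9, the DNA-binding subunit of ISGF3 and no member by name, stood at 1.09 and 1.44 in the YB pools, 1.83 and 2.0 in the YC pools, 1.33 and 1.93 in the YD pools, 1.66 and 2.32 in the YE pools, 1.41 and 0.80 in the NYPD pools and 1.82 and 1.86 in the NDL25 pools. All 12 pools were above the reference, and the second pool was the higher for both Stat2 and Irf9 in every strain but NYPD. Irf8, a factor of myeloid cells and also outside the rule, lay at -0.19 to 1.33.

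Stat3, which transmits IL-6 family signals, had the widest spread of strain means among the STATs. It stood at 0.43 and 0.09 in the YB pools, 1.28 and 1.3 in the YC pools, 0.52 and -0.05 in the YD pools, 0.31 and -0.51 in the YE pools, 0.61 and 0.69 in the NYPD pools and 0.02 and -0.12 in the NDL25 pools. Both YC pools lay above the other 10 and hardly differed from each other. The Stat3 difference of YC from NDL25 was 1.35 ± 0.27 (SE), with an unadjusted p of 0.00126 and an adjusted p of 0.131 in limma, so it did not pass. A second, dimmer Stat3 probe lay at 0.03 to 0.34 in all pools and did not set YC apart (r = 0.14 with the brightest over 12 pools).

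Stat5a and Stat5b, the mediators of prolactin signalling in mammary epithelium, were above the reference in every pool, at 0.90 to 1.99 and 0.61 to 1.59. Stat6, the mediator of IL-4 signals, lay at -0.18 to 0.51. Stat4, the mediator of IL-12 signals in lymphocytes, lay at -1.14 to 0.12, with YB pool 1 as the single pool above the reference.

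Of the regulatory factors, Irf4, a factor of B and T lymphocytes, was the lowest member, at -3.61 to -2.61. The limma F test over strains did not pass for Irf4 (adjusted p 0.833).

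Irf7, which drives the second wave of type I interferon production, stood at 0.26 and 0.70 in the YB pools, 2.55 and 1.69 in the YC pools, 1.36 and 1.66 in the YD pools, 1.67 and 2.04 in the YE pools, 0.71 and 1.11 in the NYPD pools and 0.22 and 2.0 in the NDL25 pools. The NDL25 pools lay 1.77 apart, and 0.22 in NDL25 pool 1 was the lowest of all 12. Both YC, YD and YE pools were above both NYPD pools for Irf7, yet no Irf7 contrast passed.

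Irf1, an activator that interferon gamma induces, stood at 0.00 and -0.16 in the YB pools, 0.31 and 0.54 in the YC pools, 0.06 and 0.51 in the YD pools, -0.39 and -0.20 in the YE pools, 0.67 and -0.58 in the NYPD pools and -0.23 and -0.23 in the NDL25 pools. On this probe the NYPD pools were at the top and the bottom of the range. A second, dimmer Irf1 probe gave 0.23 and 0.35 in NYPD and did not show that gap (r = 0.51 with the brightest). Irf2, which competes with Irf1 at shared sites, stood at -0.20 and -0.14 in the YB pools, -0.57 and -0.40 in the YC pools, -0.52 and -0.43 in the YD pools, -0.27 and -0.76 in the YE pools, 0.21 and 0.75 in the NYPD pools and -0.17 and -0.38 in the NDL25 pools. Here both NYPD pools lay above the other 10, and the other strains were all below the reference. The Irf2 differences were -0.65 ± 0.20 for YB, -0.96 ± 0.20 for YC, -0.95 ± 0.20 for YD and -0.99 ± 0.20 for YE against NYPD (SE), with adjusted p-values of 0.123, 0.17, 0.152 and 0.0563 in limma. None passed, and all 4 share the same NYPD pools.

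Irf3, the factor activated by RNA and DNA sensors, lay at 0.29 to 0.95 and Irf5, which acts downstream of Toll-like receptors, at -0.52 to 0.13.

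**Figure D2:**
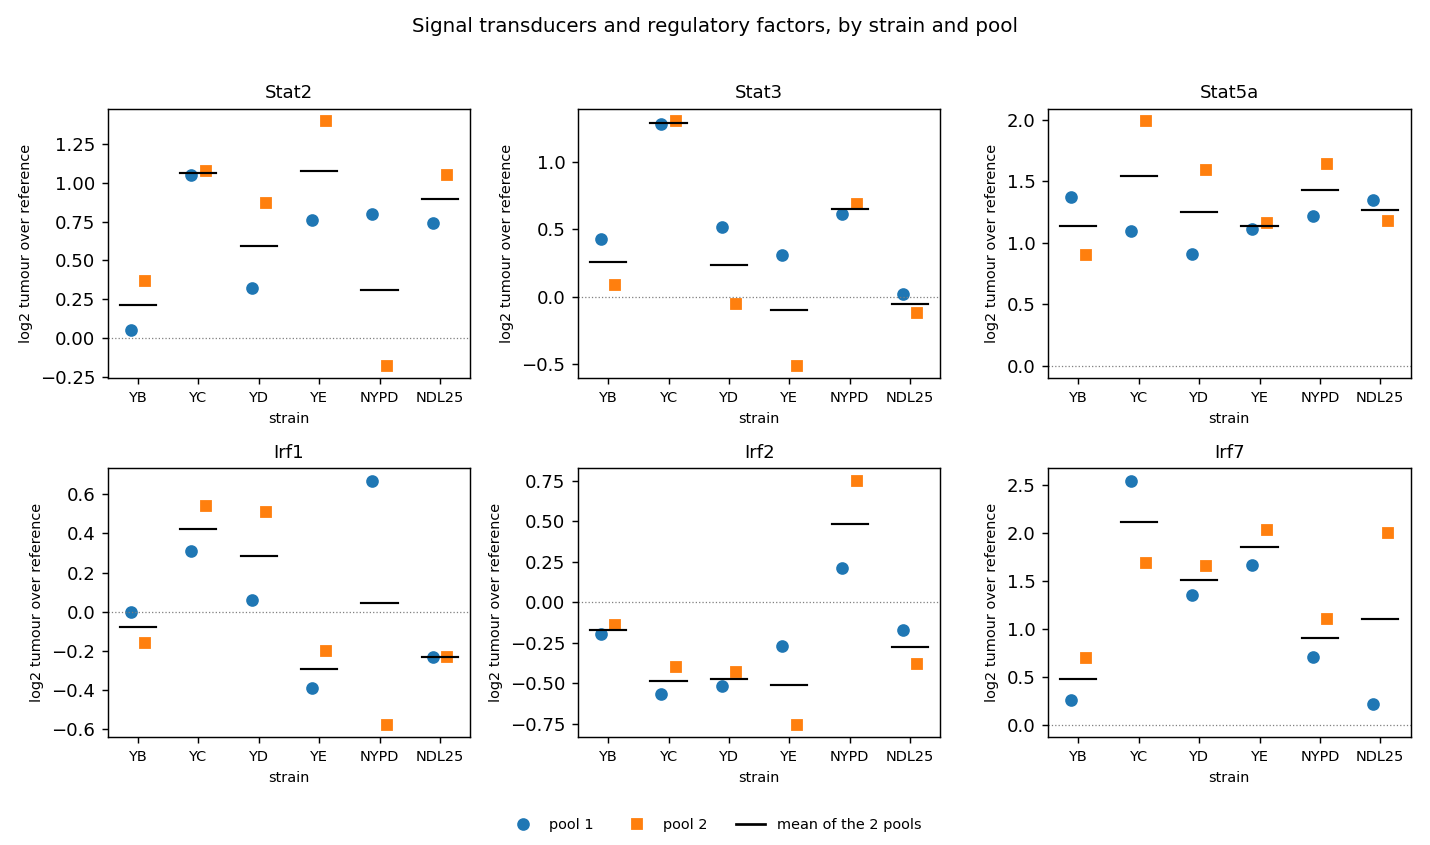
Log2 tumour over reference of Stat2, Stat3, Stat5a, Irf1, Irf2 and Irf7 by strain. Circles are the first pools, squares the second pools and bars the mean of both. The YC pools stand above all others for Stat3, the NYPD pools above all others for Irf2, and the NYPD pools lie far apart for Stat2 and Irf1. Values are from the brightest probe of each gene, and a second Irf1 probe did not show the wide NYPD gap.

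Between strains, the moderated F test of limma over the 6 strain means called 0 of the 47 members at an adjusted p under 0.05, where it called 3.11% of all genes. Before adjustment 11 members (23.4%) had an F test p under 0.05, against 21.2% of all genes. The 9 contrasts called 4 members once each, and every call was a lower value in the first-named strain. In NYPD against NDL25, 2 of 47 were called, both lower (0.993% of all genes in either direction, 0.546% lower). In YB against NYPD, 1 was called, and it was lower (5.03% in either direction, 1.07% lower). In YE against NYPD, 1 was called, and it was lower (1.84% in either direction, 1.02% lower). No member was called in YB against NDL25 (3.86% of all genes in either direction), YC and YD against NDL25 (0.00678% each), YE against NDL25 (0%), YC against NYPD (0.017%) or YD against NYPD (0.0102%). At an unadjusted p under 0.05, more members were lower than higher in NYPD against NDL25, with 9 lower (8.1% of all genes) and 6 higher (7.53%). In YB against NDL25 there were 6 lower (6.63%) and 1 higher (10.6%), in YC 1 lower (6.65%) and 5 higher (4.65%), in YD 3 lower (5.91%) and 1 higher (4.45%), and in YE 0 lower (4.76%) and 2 higher (2.75%). Against NYPD there were 4 lower (7.46%) and 0 higher (12.5%) in YB, 3 lower (5.86%) and 9 higher (4.36%) in YC, 2 lower (5.55%) and 3 higher (5.24%) in YD, and 9 lower (10.2%) and 7 higher (9.07%) in YE.

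Oas1a and Oas1f were lower in NYPD than in NDL25 tumours. Oas1a makes the 2-5A signal that activates RNase L, and Oas1f is another gene of the same mouse cluster. Oas1a stood at 0.76 and 0.90 in the YB pools, 1.74 and 1.35 in the YC pools, 1.0 and 1.31 in the YD pools, 1.31 and 1.69 in the YE pools, 0.66 and 0.30 in the NYPD pools and 1.6 and 1.84 in the NDL25 pools. The NYPD pools were the lowest of the 12, and the NDL25 pools did not overlap them. The Oas1a difference was -1.24 ± 0.20 (SE, n = 2 pools each; 2.36-fold lower; limma adjusted p 0.0438).

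Oas1f stood at 1.0 and 0.98 in the YB pools, 1.66 and 1.35 in the YC pools, 0.94 and 1.43 in the YD pools, 1.26 and 1.76 in the YE pools, 0.70 and 0.23 in the NYPD pools and 1.84 and 1.92 in the NDL25 pools. Again NYPD was the lowest strain and NDL25 the highest, without overlap. The Oas1f difference was -1.42 ± 0.23 (2.67-fold lower; limma adjusted p 0.0439). Oas1a and Oas1f are close relatives measured by 1 probe each. Whether a probe also reads its relatives was not tested. Both calls held when either YB pool or NYPD pool 1 was left out. They ended without any of the other 9 pools, that is both pools of YC, YD, YE and NDL25, or NYPD pool 2. The limma adjusted p was then 0.0549 to 0.16 for Oas1a at -1.36 to -1.05, and 0.0564 to 0.196 for Oas1f at -1.46 to -1.18. With the authors' deposited ratios both also ended (limma adjusted p 0.063 for Oas1a and 0.0625 for Oas1f). Without the pools numbered 1 of NDL25 and YB, where Erbb2 was low, the limma adjusted p was 0.144 for Oas1a and 0.177 for Oas1f. The monocyte gene Cd14 passed the same comparison, at 1.99 and 1.39 in NYPD and -0.53 and -0.57 in NDL25. Of 12 macrophage markers 1 was called higher and 0 lower, and the list's median was 1.39 and 1.36 in NYPD pools against 0.69 and 0.49 in NDL25 pools. The milk protein gene Wap was also called higher in NYPD, by 2.33. It was the only call among 7 milk genes, whose median difference was -0.07. The part of these cells in the OAS result was not tested.

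The other 10 OAS genes did not pass. Without overlap, 16 of 47 members were lower in NYPD than in NDL25 (26.6% of all genes), and 9 of these 16 were among the 12 OAS genes. Those 9 include Oas1d (-0.08) and Oas1e (-0.21), whose dim probes stayed near the reference. The family's median difference was -0.60, where the median of all genes was -0.01. Oas1b, whose full-length form is known for resistance to flaviviruses in mice, stood at 0.52 and 0.86 in the YB pools, 1.89 and 1.22 in the YC pools, 0.96 and 1.24 in the YD pools, 1.2 and 1.54 in the YE pools, 0.61 and 0.48 in the NYPD pools and 1.45 and 1.74 in the NDL25 pools. Both NYPD pools and YB pool 1 were the lowest for Oas1b, and NYPD against NDL25 gave -1.05 ± 0.24 (limma adjusted p 0.0896). Oas1g, another gene of the cluster, stood at 0.41 and 0.48 in the YB pools, 0.62 and 0.49 in the YC pools, 0.27 and 0.41 in the YD pools, 0.48 and 0.81 in the YE pools, 0.50 and 0.01 in the NYPD pools and 1.05 and 0.96 in the NDL25 pools. NDL25 was above every other pool for Oas1g, and NYPD against NDL25 gave -0.75 ± 0.17 (limma adjusted p 0.0842). The Oas1g probe was dim, at a mean log2 intensity of 7.2, against 10.01 for Oas1b.

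The Oas3 difference of NYPD from NDL25 was 0.26 ± 0.10 on its brightest probe, with a limma adjusted p of 0.254, and -0.64 on its second probe. Its brightest probe was below the reference in every pool (-0.55 to -0.14), while its second probe was above it in every pool, at 0.16 to 1.37. Neither the level of Oas3 against the reference nor the direction of its strain difference is therefore settled. The probes of Oas1d, Oas1e and Oas1h, also dim, stayed near the reference, at -0.06 to 0.11, -0.08 to 0.43 and -0.04 to 0.16.

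The single-site strains were set against the same NDL25 pools. Of the 12 OAS genes, 10 were lower without overlap in YB, 6 in YC, 10 in YD and 6 in YE. Some of these were dim probes near the reference, with differences of only -0.15 to -0.05. They were Oas1e and Oas1h in YB, Oas1d and Oas1e in YC, and Oas1d, Oas1e and Oas1h in YD. Over all members 18, 9, 16 and 16 were lower without overlap in these contrasts, against 24.7%, 25.6%, 23.9% and 20.3% of all genes. Without overlap, the members higher than in NDL25 numbered 7 for YB (22.4% of all genes), 17 for YC (21.6%), 7 for YD (22.2%), 5 for YE (20.3%) and 9 for NYPD (20.4%). The median difference of the OAS family was -0.47 in YB, -0.11 in YC, -0.46 in YD and -0.24 in YE, against medians of -0.01, -0.01, 0.00 and 0.00 over all genes. With the readout day as a block, YC pool 2 taken as the day of its first array, the median over all 47 members was 0.04 for YD and 0.03 for YE against NDL25, where it was -0.07 and -0.12 without the block. The median of the OAS family alone was not computed with the block. The closest single gene was Oas1a in YB against NDL25, at -0.88 ± 0.20 with a limma adjusted p of 0.0584.

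The IRF2 cofactors gave the other calls. Irf2bp1 and Irf2bp2 encode corepressors that bind IRF2, and each was measured by 1 probe. Irf2bp1 stood at 0.18 and -0.16 in the YB pools, 0.45 and 0.42 in the YC pools, 0.47 and 0.55 in the YD pools, 0.39 and 0.40 in the YE pools, 0.57 and 1.0 in the NYPD pools and 0.60 and 0.42 in the NDL25 pools. Both YB pools were below every other pool, and NYPD pool 2 was the highest. The difference of YB from NYPD was -0.77 ± 0.15 (SE; 1.71-fold lower; limma adjusted p 0.0321). The call held without YB pool 1 or NYPD pool 1. Without any of the other 10 pools, that is YB pool 2, NYPD pool 2 or either pool of YC, YD, YE and NDL25, it ended, with values of -0.77 to -0.56 and limma adjusted p-values of 0.055 to 0.115. It held without the pools numbered 1 of NDL25 and YB (-0.94, limma adjusted p 0.0410).

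Irf2bp2 stood at -0.05 and -0.07 in the YB pools, -0.11 and 0.05 in the YC pools, -0.29 and -0.16 in the YD pools, -0.39 and -0.68 in the YE pools, 0.63 and 0.22 in the NYPD pools and -0.73 and -0.35 in the NDL25 pools. The NYPD pools were the highest and overlapped no other strain, and YC pool 2 was the only other pool above the reference. The difference of YE from NYPD was -0.96 ± 0.18 (SE; 1.95-fold lower; limma adjusted p 0.0430). In NYPD against NDL25 it was 0.96 ± 0.18 with a limma adjusted p of 0.0552, which did not pass, and it uses the same NYPD pools. The YE call held without either YB pool. Without either pool of YC, YD, YE, NYPD or NDL25 it ended, with values of -1.17 to -0.75 and limma adjusted p-values of 0.0509 to 0.238. It also ended with the authors' deposited ratios (-1.06, limma adjusted p 0.0566) and without the pools numbered 1 of NDL25 and YB (limma adjusted p 0.0582). In this comparison Cd14 (-2.13) and Mpeg1 (-0.91), both macrophage genes, were called lower in YE, and the median of the 12 macrophage markers was 0.38 and 0.11 in YE pools against 1.39 and 1.36 in NYPD pools. The endothelial gene Pecam1 (-0.83), the luminal keratin gene Krt19 (-3.42) and the milk protein gene Wap (-2.28) were called lower there too. Each was the only call of its list. The median differences were -0.34 over 6 endothelial, -0.09 over 8 luminal and 0.23 over 7 milk genes. In YB against NYPD 0 of the 12 macrophage markers were called, while the B cell gene Ms4a1 (-0.86) was called lower and the dendritic cell gene Itgax (0.37) and the endothelial gene Emcn (0.72) higher. Their part in the cofactor results was not tested.

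**Figure D3:**
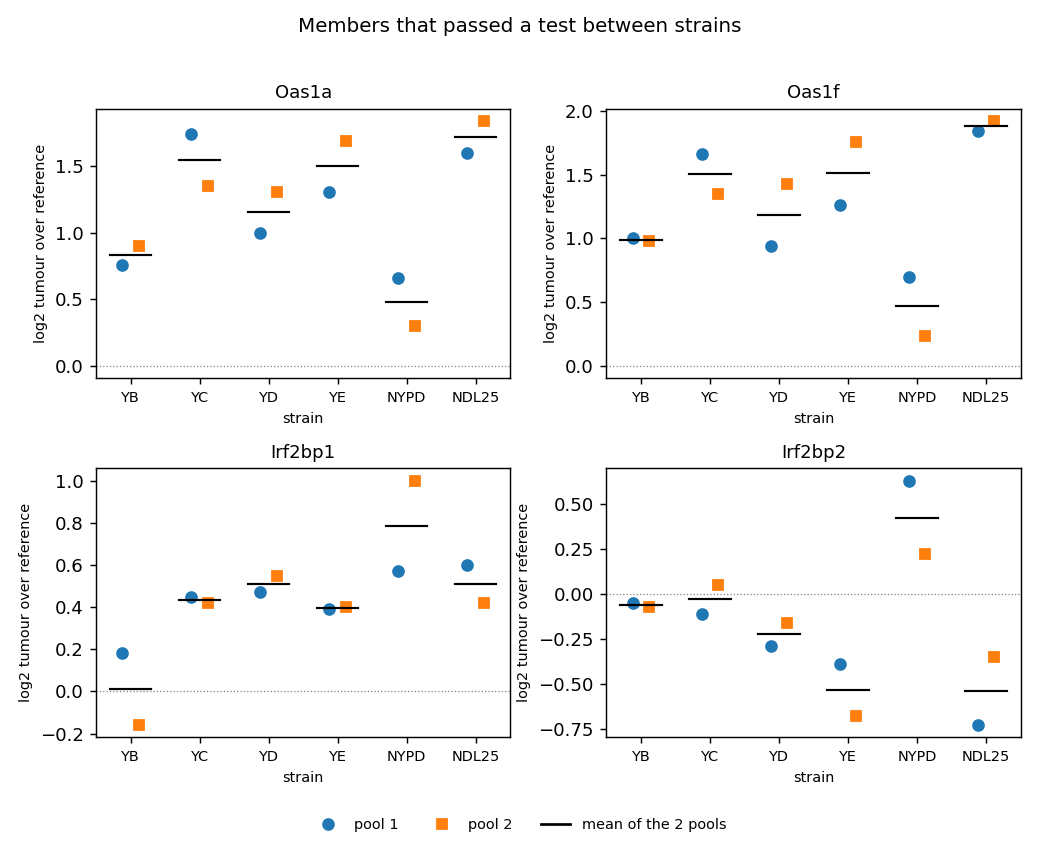
Log2 tumour over reference of the 4 members that passed a test between strains. Circles are the first pools, squares the second pools and bars the mean of both. By strain mean, NYPD is lowest and NDL25 highest for Oas1a and Oas1f, YB lowest for Irf2bp1, and NYPD highest for Irf2bp2.

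The remaining strain differences did not pass. Without overlap, 8 members were lower and 5 higher in YB than in NYPD (20.5% and 25.2% of all genes), 8 lower and 16 higher in YC (19.8% and 21%), 11 lower and 9 higher in YD (19.4% and 22.3%), and 15 lower and 11 higher in YE (22.3% and 27.4%). These 4 contrasts share the NYPD pools. The median over the 47 members was -0.05 for YB, 0.27 for YC, 0.05 for YD and 0.02 for YE against NYPD. Over all genes these medians were 0.00, 0.00, 0.01 and 0.01. The YC median over the members was 0.04 without NYPD pool 2 and 0.40 without NYPD pool 1.

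Isg20, an interferon-induced exonuclease, stood at -1.17 and -1.48 in the YB pools, -0.47 and -0.84 in the YC pools, -1.02 and -0.85 in the YD pools, -1.44 and -1.62 in the YE pools, -1.17 and -1.23 in the NYPD pools and -1.09 and -1.51 in the NDL25 pools. Both YC pools lay above the other 10, YC pool 2 barely above YD pool 2, and YC against NDL25 gave 0.65 ± 0.18 (limma adjusted p 0.229). Ifi35, a leucine-zipper protein, stood at 0.35 and 0.37 in the YB pools, 1.33 and 0.69 in the YC pools, 0.70 and 0.75 in the YD pools, 0.79 and 0.96 in the YE pools, 0.30 and 0.30 in the NYPD pools and 0.43 and 0.49 in the NDL25 pools. YC pool 1 was the highest, both NYPD pools were the lowest, and YC against NYPD gave 0.71 ± 0.18 (limma adjusted p 0.22).

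**Figure D4:**
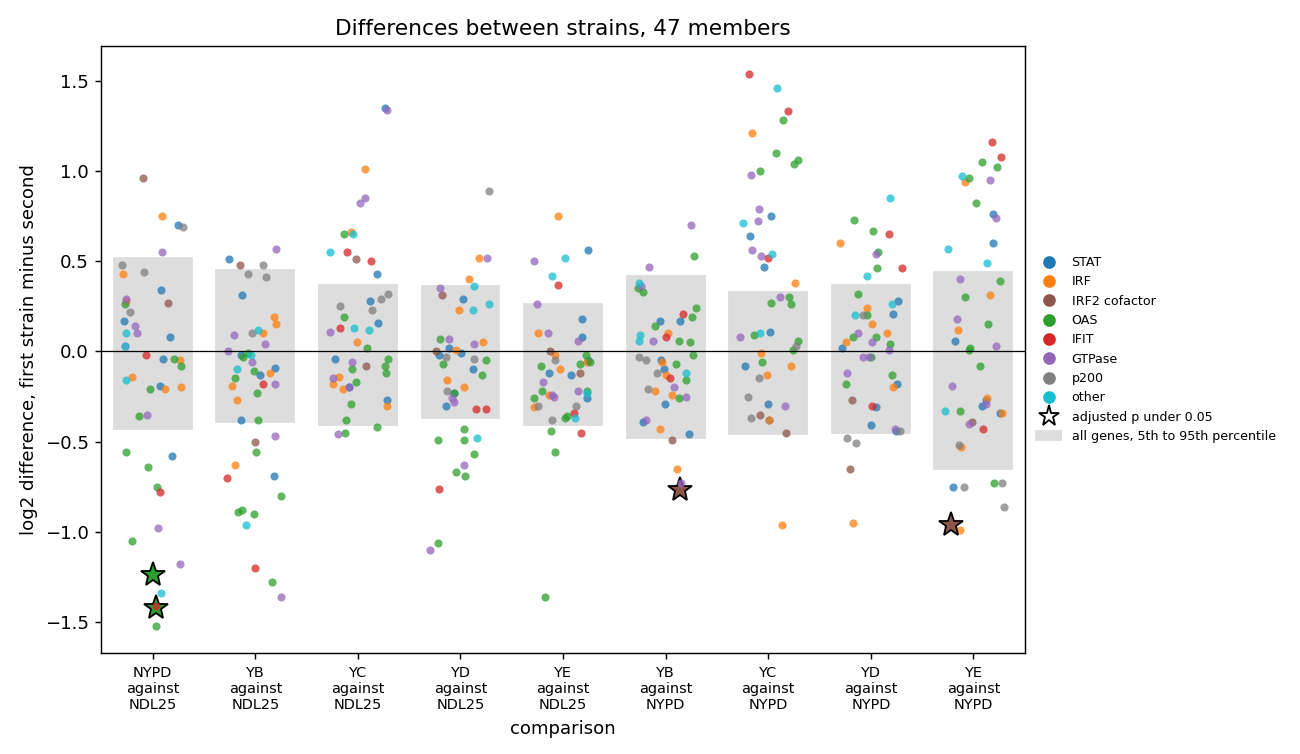
Log2 difference between strain means (first-named strain minus second) for the 47 members in each of 9 comparisons, by family. Stars mark the 4 members with an adjusted p under 0.05, and grey boxes span the 5th to 95th percentile of all 29498 genes. Most green points (OAS) lie below 0 in the comparisons with NDL25, and all 4 stars lie below 0.

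The pools of a strain also differed from each other. The median absolute gap between the 2 pools of a strain in YB was 0.34 for the members and 0.13 over all genes. For YC it was 0.30 and 0.09, for YD 0.31 and 0.09, for YE 0.35 and 0.10, for NYPD 0.42 and 0.12, and for NDL25 0.17 and 0.09. Since each pool holds 5 tumours and each strain 2 pools, no test of a pool against its partner is possible. In 28 of the 47 members (59.6%) the largest gap within a strain exceeded the range of the 6 strain means, where 49.1% of all genes did so.

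In every strain but YB and NDL25 the larger gaps ran mostly one way. By at least 0.5, pool 1 was above pool 2 for 16 members in NYPD (3.92% of all genes) and 11 in YC (3.23%), and for 1 member in YD (3.19%), 2 in YE (4.06%) and 1 in NDL25 (1.5%). Pool 2 was above pool 1 by that much for 13 members in YD (3.2%) and 11 in YE (2.35%), and for 1 in NYPD (4.12%), 1 in YC (3.67%) and 3 in NDL25 (2.39%). YB was mixed, with 7 members higher in pool 1 (5.78%) and 5 in pool 2 (4.84%). NYPD pool 2 was the lowest of the 12 pools for 19 of 47 members (15.5% of all genes), and YC pool 1 the highest for 12 (5.87%).

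**Figure D5:**
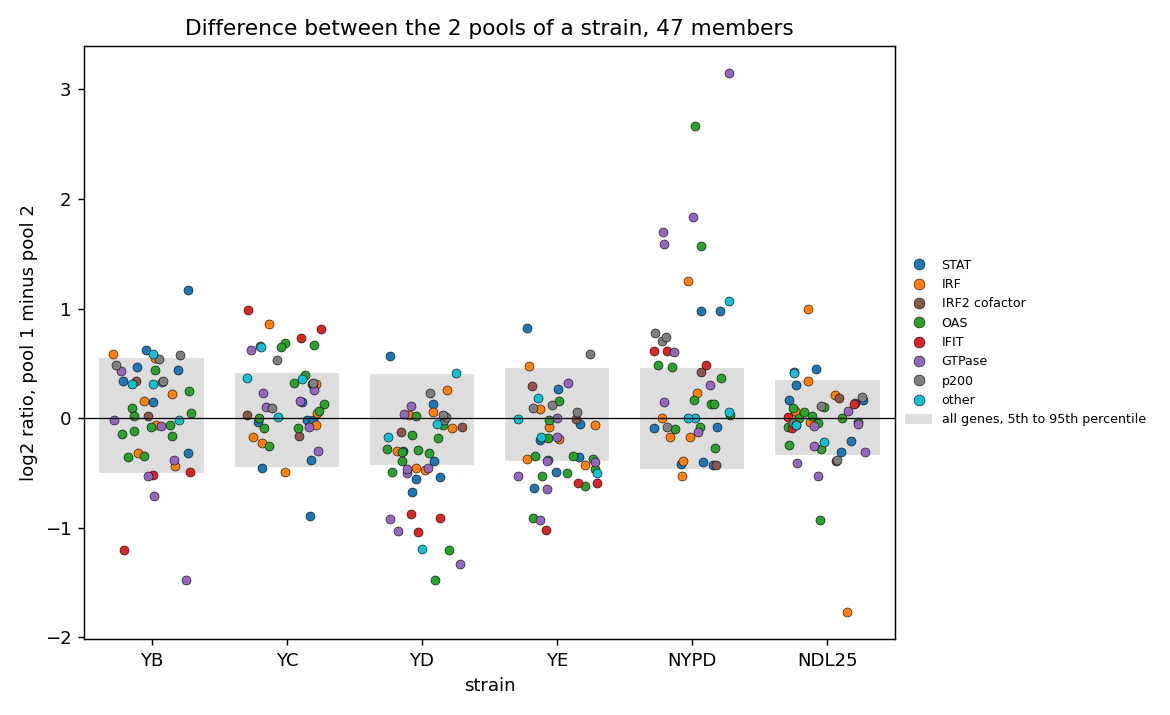
Log2 ratio in pool 1 minus pool 2 for the 47 members in each strain, by family. Grey boxes span the 5th to 95th percentile of all 29498 genes. NYPD and YC points lie mostly above 0, YD and YE points mostly below it, and the largest gaps are those of Gbp4 and Oas2 in NYPD.

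The widest gap of any member was that of a GTPase. Gbp4, a guanylate-binding protein induced by interferon gamma, stood at 1.66 and 2.04 in the YB pools, 2.84 and 2.68 in the YC pools, 1.6 and 2.63 in the YD pools, 2.64 and 3.3 in the YE pools, 3.81 and 0.66 in the NYPD pools and 3.25 and 3.18 in the NDL25 pools. The NYPD pools were its highest and its lowest, 3.15 apart on the log2 scale. Ifi1 (Irgm1), an immunity-related GTPase, stood at 1.47 and 2.95 in the YB pools, 2.42 and 2.5 in the YC pools, 1.45 and 1.96 in the YD pools, 1.87 and 2.4 in the YE pools, 2.65 and 0.82 in the NYPD pools and 1.43 and 1.84 in the NDL25 pools. For Ifi1 the YB pools were far apart too, with pool 2 the higher, and a second Ifi1 probe gave 1.14 and 3.09 in YB.

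Ifi47, another immunity-related GTPase, stood at 1.28 and 1.3 in the YB pools, 2.92 and 2.7 in the YC pools, 1.76 and 2.22 in the YD pools, 1.65 and 1.81 in the YE pools, 2.87 and 1.17 in the NYPD pools and 1.2 and 1.74 in the NDL25 pools. YC was high in both pools and NYPD in the first only. Gbp2 had its highest and lowest values in the NYPD pools, at 1.91 and 0.31. Mx2, a dynamin-like antiviral GTPase, lay at 0.66 to 2.38 and its relative Mx1 at 0.14 to 1.0, both lowest in NYPD pool 2. Gbp5 (0.00 to 0.20) and Gbp1 (-0.61 to 0.01) stayed near the reference.

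In the OAS family, Oas2, whose product makes longer 2-5A chains, stood at 0.75 and 0.49 in the YB pools, 2.41 and 1.72 in the YC pools, 0.24 and 1.72 in the YD pools, -0.21 and 0.32 in the YE pools, 2.12 and -0.55 in the NYPD pools and 0.95 and 1.88 in the NDL25 pools. Its NYPD pools were 2.67 apart and its YD pools also lay far apart. A second, dimmer Oas2 probe gave 0.13 and 0.07 in the NYPD pools. Oasl2, an OAS-like gene, stood at 1.08 and 1.2 in the YB pools, 2.16 and 1.83 in the YC pools, 0.76 and 1.96 in the YD pools, 1.4 and 2.31 in the YE pools, 1.68 and 0.11 in the NYPD pools and 2.42 and 2.4 in the NDL25 pools. The NDL25 pools were the highest for Oasl2 and within 0.02 of each other, while NYPD pool 2 was the lowest. Oasl1 lay below the reference throughout (-1.3 to -0.42), and Oas1c lay at 0.14 to 0.79.

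Ifit1, which binds foreign RNA caps, stood at 0.23 and 1.43 in the YB pools, 2.65 and 1.66 in the YC pools, 0.81 and 1.72 in the YD pools, 1.4 and 1.99 in the YE pools, 0.92 and 0.31 in the NYPD pools and 2.03 and 2.03 in the NDL25 pools. Ifit3, its partner protein, stood at 0.56 and 1.08 in the YB pools, 2.48 and 1.67 in the YC pools, 0.68 and 1.73 in the YD pools, 1.39 and 2.41 in the YE pools, 0.99 and 0.50 in the NYPD pools and 1.48 and 1.57 in the NDL25 pools. For both genes pool 2 was the higher in YB, YD and YE and pool 1 in YC and NYPD. Ifit2 kept the same order of pools at a lower level, -1.59 to 0.03. Ifi44, a cytoplasmic protein linked to growth arrest, stood at 0.46 and -0.12 in the YB pools, 1.26 and 1.25 in the YC pools, 0.05 and 1.24 in the YD pools, 0.51 and 1.02 in the YE pools, 0.33 and -0.74 in the NYPD pools and 1.02 and 1.24 in the NDL25 pools. NYPD pool 2 was its lowest and the YC pools its highest, level with NDL25 pool 2 and YD pool 2.

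On their brightest probes the p200 genes lay below the reference in every pool. The other 2 Ifi205 probes lay above it in every pool (0.38 to 1.34 and 0.20 to 0.99), and the second Ifi203 probe lay at -0.09 to 0.10, so the level of these genes depends on the probe. Ifi202b lay at -3.38 to -2.07, Ifi16 at -2.83 to -1.72, Ifi203 at -1.76 to -0.83 and Ifi205 at -2.13 to -0.78. On the brightest probes of Ifi202b, Ifi203 and Ifi16 NYPD pool 1 was 0.70 to 0.78 above NYPD pool 2. Another Ifi16 probe showed that gap, at -1.65 and -2.23 in the NYPD pools. The dimmest Ifi16 probe did not, at -1.59 and -1.52 (r = 0.29 with the brightest). Nor did the dimmer Ifi203 probe, at -0.06 and 0.10. On the brightest probes YE lay below NYPD without overlap for all 4 p200 genes, at a median difference of -0.74, and none of the 4 passed. The lysosomal reductase Ifi30 lay at 0.37 to 0.94.

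The gaps were also counted by promoter motif. By at least 0.5 in NYPD, 7 of 16 members with the response-element core and 6 of 22 with a window and no match differed between pools. In YE these numbers were 7 of 16 and 5 of 22, in YB 6 of 16 and 4 of 22, in YD 6 of 16 and 6 of 22, in YC 3 of 16 and 6 of 22, and in NDL25 0 of 16 and 3 of 22.

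Other interferon-stimulated genes outside the naming rule were counted the same way. Of 36 such genes, 19 were higher by at least 0.5 in pool 1 than in pool 2 of NYPD and 13 in YC, while 15 were higher in pool 2 of YD and 7 in YE. Of 16 antigen presentation genes, 8 were higher in pool 1 of NYPD by that much and 0 in pool 2. The 14 interferon genes differed by less than 0.5 in all 6 strains, and their median over the list was 0.00 to 0.14 in every pool.

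Markers of infiltrating cells were read beside these gaps. Of 13 T and NK cell markers, 2 were higher by at least 0.5 in pool 1 of YB, 1 was so in pool 1 of NYPD and 1 in pool 1 of YC, 0 in either pool of YD and 1 in pool 2 of YE. The T and NK list had medians of 0.05 to 0.22 over the 12 pools. Of 12 macrophage markers, 8 were higher by that much in pool 1 of YB, where the members were mixed, and at most 2 in either pool of the other strains. The 6 dendritic cell markers had medians of 0.01 to 0.12, and the 7 B and plasma cell markers medians of -2.95 to -1.67. The part of these cells in the gaps was not tested.

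Among the other genes of the pathway, few passed a test between strains. Of 36 other interferon-stimulated genes, 1 was called lower in NYPD than in NDL25 (0.546% of all genes) and 1 higher in YE than in NYPD (0.824%). Both calls were of Rtp4, a receptor-transporting protein named 5830458K16Rik in the files. Rtp4 stood at 1.84 and 1.96 in the YB pools, 3.28 and 2.81 in the YC pools, 2.46 and 2.76 in the YD pools, 2.94 and 2.92 in the YE pools, 1.35 and 0.42 in the NYPD pools and 2.71 and 3.08 in the NDL25 pools. Both NYPD pools lay below the other 10. The Rtp4 differences were -2.01 ± 0.29 for NYPD against NDL25 (limma adjusted p 0.0321) and 2.05 ± 0.29 for YE against NYPD (limma adjusted p 0.0256). Rtp4 was also called by the F test (adjusted p 0.0343).

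Of 17 nucleic acid sensors and adaptors, 2 were called higher in YB than in NDL25 and none lower, where 3.08% of all genes were called higher. They were Myd88, the Toll-like receptor adaptor, at 0.65 and 0.60 in YB against 0.12 and 0.20 in NDL25, and Sting1 (2610307O08Rik in the files), the adaptor of the cytosolic DNA sensor cGAS, at 0.77 and 0.30 in YB against -0.50 and -0.77 in NDL25. Their differences were 0.46 ± 0.09 (limma adjusted p 0.0356) and 1.17 ± 0.20 (limma adjusted p 0.0231). In the same comparison 2 of 12 macrophage markers were called higher, Cd14 by 2.26 and Mpeg1 by 0.80, and 2 of 8 luminal markers, Krt19 by 3.40 and Muc1 by 0.39, and their part was not tested. Of 16 antigen presentation genes 1 was called higher in YB than in NDL25, the class II gene H2-Aa, by 0.59 ± 0.13 (limma adjusted p 0.0464).

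Of 13 negative regulators, 1 was called lower in NYPD than in NDL25, where 0.546% of all genes were. It was the phosphatase gene Ptpn11, by -0.51 ± 0.09 (limma adjusted p 0.0494). The same gene was called higher in YB than in NYPD, where 3.97% of all genes were, by 0.46 ± 0.09 (limma adjusted p 0.0298). Of the 14 interferon genes, Ifna2 was called higher in YB than in NDL25 (0.35 ± 0.07, limma adjusted p 0.0336), and Ifna1 and Ifna2 in YB than in NYPD (0.27 ± 0.05 and 0.42 ± 0.07, limma adjusted p 0.0202 and 0.0178), where 3.97% of all genes were called higher. Those interferon ratios lay near the reference, at 0.25 to 0.42 in YB and -0.13 to 0.21 in all other pools. None of 9 receptor and kinase genes was called in any of the 9 contrasts.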

How the data were processed

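RNA of 12 pools of separate tumours was measured on 24 2-colour arrays. The deposited intensity values are mean spot and median background brightness from Agilent Feature Extraction A.7.5.1, per the file headers. For each pool there is also 1 log2 ratio made and deposited by the authors. Their tools, per the submitters' processing notes, included RMA, limma and R 2.3.0, whose roles are not given in the sources used here. The deposited ratios correlated with those computed here at 0.983 to 0.988, in the same direction, and serve as an alternative.

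With limma 3.58.1 in R 4.3.3, intensities were corrected by normexp (offset 50), normalized by loess within each array, turned to tumour over reference, and averaged over the 2 arrays of a pool. Marked spots were left out, as were 2 probes lacking a value in a pool and 325 probes whose tumour signal was well above background on fewer than 4 arrays. The brightest probe of each array gene name was kept, leaving 29498 genes. Strain means were fitted on 12 pools (6 residual degrees of freedom, prior 1.76), with a moderated F test and 9 contrasts. P-values were adjusted by Benjamini-Hochberg over all genes, at a threshold of 0.05. Since each strain has 2 pools, p-values rest on a spread shared by all strains. The fit was tested on simulated data. Accessions named 41 of the 47 members through RefSeq, and 4 took a new symbol.

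Values by pool are printed for called members, the 10 with the smallest F test p-values, the 10 with the widest range, and Stat2, Irf1, Irf7 and Irf9. Some members enter the counts and medians and are not reported here by name. The members and lists were chosen with earlier results of these data known. Alternatives were other background corrections and normalizations, the deposited ratios, no filter, the second probe of genes that have one, and either dye alone. Further ones were the readout day of the scans, other samples in the fit, the pool number as a block, and each pool left out.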

Additional observations from a re-analysis of the deposited data

How the results depend on the processing

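Of the counts of called members, 183 stayed within 1.5 times the count reported, 32 were lower and 18 higher. A reported count of 0 could not become lower, and most of the reported counts were 0, so these numbers say little about stability. Over the alternatives, the 4 called members kept their call 43 times and lost it 49 times, and none of them changed its direction. Each of the 4 has 1 probe, so the second-probe alternative reused that probe. The calls kept there are among the 43 and say nothing about another probe. The median over members, which has no test, crossed 0 with a pool left out in YC against NDL25 (-0.02 to 0.15), YD against NDL25 (-0.18 to 0.02), YB against NYPD (-0.19 to 0.13), YD against NYPD (-0.12 to 0.17) and YE against NYPD (-0.08 to 0.11). Median centring, arrays with the tumour in Cy3 and arrays with it in Cy5 each gave 2 calls in YE against NYPD. The authors' deposited ratios gave 0 in NYPD against NDL25, 1 in YB against NDL25 and 0 in YE against NYPD. With the readout day of the scans as a random block, the F test gave 4 calls, NYPD against NDL25 gave 5 and YE against NYPD gave 4. Since NYPD has a day of its own, this block cannot separate day from strain in the contrasts with NYPD. Fits of only the 2 strains compared gave 0 in NYPD against NDL25, 0 in YB against NYPD and 0 in YE against NYPD. Without the pools numbered 1 of NDL25 and YB, chosen after seeing the data, NYPD against NDL25 gave 0 and YB against NYPD gave 2. With each pool left out in turn, calls ranged from 0 to 1 by the F test, 0 to 4 in NYPD against NDL25, 0 to 2 in YB against NDL25, 0 to 2 in YB against NYPD, 0 to 2 in YC against NYPD, 0 to 1 in YD against NYPD and 0 to 2 in YE against NYPD. These fits have fewer samples, and a lone pool is assumed to vary like the others. For the other changes the cause was not tested. With the second brightest probe, 5 members were below 0 in all 12 pools. The readout day as a fixed block could not be fitted for the F test or the contrasts with NYPD.

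With the pool number as a replicate block, YE against NYPD gave 0 calls (Irf2bp2 -0.96, limma adjusted p 0.0506), and the calls of Oas1a, Oas1f and Irf2bp1 were kept. Deviations of same-numbered pools correlated at -0.17 to 0.71 over 15 pairs of strains (0.71 for YC and YD, 0.63 for YD and YE, 0.47 for YC and YE). Not every pair exceeded 0.1 and no label ties the numbers to a shared batch, so the numbers were not treated as a pairing.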
